A study of Mus musculus with 6 samples.

Results

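The genes described here are the mouse potassium channel genes of an expression array, taken by symbol as every non-control probe whose gene name starts with Kcn, with the noncoding Kcnq1ot1 left out. They were read by 142 of 55681 non-control probes and make up 94 genes. Of these, 53 were bright enough to be tested, among 21478 tested genes in all. The class counts were 40 voltage-gated alpha subunit genes (19 tested), 13 genes of their accessory subunits (8 tested), 12 calcium-activated and related genes (8 tested), 15 inward-rectifier genes (8 tested) and 14 tandem-pore genes (10 tested).

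The study asked how the fetal vascular system responds directly to a ligand of NOD1, which detects pieces of the bacterial cell wall inside cells and activates NF-kB. C57BL/6 females lacking Nod1 (Nod1 -/-) were mated with Nod1 +/- males and received 500 µg of the synthetic NOD1 ligand FK565 under the skin at E18.5 of gestation. Aortic arteries of littermate fetuses were taken 6 h later, and RNA was hybridised to 3 arrays from Nod1 +/- and 3 from Nod1 -/- fetuses. All 6 arrays therefore come from fetuses of FK565-treated Nod1 -/- dams, of the same strain and age, the Nod1 +/- fetuses carry 1 working allele, and no array came from an untreated dam or a wild-type fetus. The labels do not say if an array stands for 1 fetus or a pool, and p-values therefore measure only the spread between these samples.

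Potassium channels let potassium leave the cell and so set the membrane potential, which in arterial smooth muscle controls calcium entry and contraction. Voltage-gated channels open on depolarisation and are built from alpha subunits tuned by accessory subunits, while calcium-activated channels open as calcium rises. Inward rectifiers, which include the ATP-sensitive channels of vessels, and tandem-pore channels hold the resting potential.

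Values are the log2 signal of a gene's brightest kept probe minus the array's own 75th percentile, so a value of 0 is a bright probe of that array. Differences are Nod1 +/- minus Nod1 -/- with their standard error, tested with limma across all 21478 genes, with Benjamini-Hochberg adjustment and a threshold of 0.05. Well above background is the scanner software's own call for a spot.

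The results turn on the transcripts read by the following 60-base probes, of which the first 30 bases are shown in the array's own 5′ to 3′ orientation, with the position of the whole probe on mm9. They are shown because each of these genes is read here by a single tested probe, so the sequence defines what was measured.
Kcnip4 probe (chr5:48780889-48780948, minus strand): tttacgactgtctgcaacaataaatcaggt
Kcnab1 probe (chr3:65181718-65181777, plus strand): ggggtttttgttgttgttttgttttctgta
Kcna1 probe (chr6:126586524-126586583, minus strand): gcgcatagttttcatctatgcaattttact
Kcns3 probe (chr12:11097716-11097775, minus strand): aaagtaaatgatattgggaaggatttattg
Kcnk1 probe (chr8:128554281-128554340, plus strand): cctaacaaactcaagagaaaatcggtacga
Kcnj8 probe (chr6:142513487-142513546, minus strand): cacgggtcatcatgaatatgttcaaatcta
Kcnq5 probe (chr1:21389067-21389126, minus strand): aggaagttacctaaaacatgtttgccacgt

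Between 48.6% and 58.4% of probes were well above background on an array, and 43 to 52 of the 53 tested channel genes were. Nod1 itself, read by 1 probe at chr6:54874007-54874066 of mm9, differed by 0.13 (95% confidence interval -0.32 to 0.59; adjusted p = 0.648); the deleted part of Nod1 is not given in the sources used here, so this probe does not check the labels. The nearest channel gene probe on that chromosome was 33.2 Mb away, in Kcnd2. Smooth muscle markers were bright on all arrays, with a mean of 4.47 to 4.90, and 0 of 8 passed by limma (1 at an unadjusted p under 0.05). By position, Nod1 -/- replicates 1 and 2 shared slide row 1, and row 2 held the other 4. A block by slide row therefore sets the Nod1 +/- arrays against Nod1 -/- replicate 3. The row 1 arrays had the most probes well above background, at 58.4% and 56.5%, against 48.6% to 54.7% in row 2. For channel probes the counts were 77 and 75 in row 1 and 55 to 63 in row 2. Transcripts of other cell types varied between arrays and are given beside the results they touch. Lymphocyte (0 of 4 tested), brown fat (0 of 5) and cardiac markers (0 of 7) did not pass, with 0, 0 and 1 at an unadjusted p under 0.05. Of 4 tested epithelial markers 1, Krt18, was lower in Nod1 +/-, and 2 had an unadjusted p under 0.05. The second, Cldn3, was above Nod1 -/- on every Nod1 +/- array (difference 0.74, limma adjusted p = 0.0777), and the list's median difference was 0.50.

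In Nod1 +/- vessels 11 potassium channel genes fell and 3 rose relative to Nod1 -/- vessels, which is 14 of the 53 tested (26.4%), and 39 did not pass. Among all genes tested 18.7% passed, 7.66% higher and 11.0% lower, against 5.66% and 20.8% of the channel genes. The median difference of the channel genes was -0.29 and that of all genes -0.10, and 40 of 53 channel genes lay below 0, against 60.1% of all genes. The genotypes did not overlap for 22 of the 53, where 42.4% of all genes tested did not overlap. Median scaling moved the median of all genes to 0.01 and that of the channel genes to -0.18, and 9 channel genes then passed (3 higher, 6 lower). The number passing was 7 without Nod1 +/- replicate 1 or 2, 8 without Nod1 -/- replicate 1, 7 without Nod1 -/- replicate 2 or 3, and 6 when blocked by slide row. Tested probe by probe, 11 of 65 kept channel probes passed (2 higher, 9 lower), against 15.9% of all kept probes. In whole vessels, fewer cells of a type and less RNA per cell cannot be told apart.

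**Figure D1:**
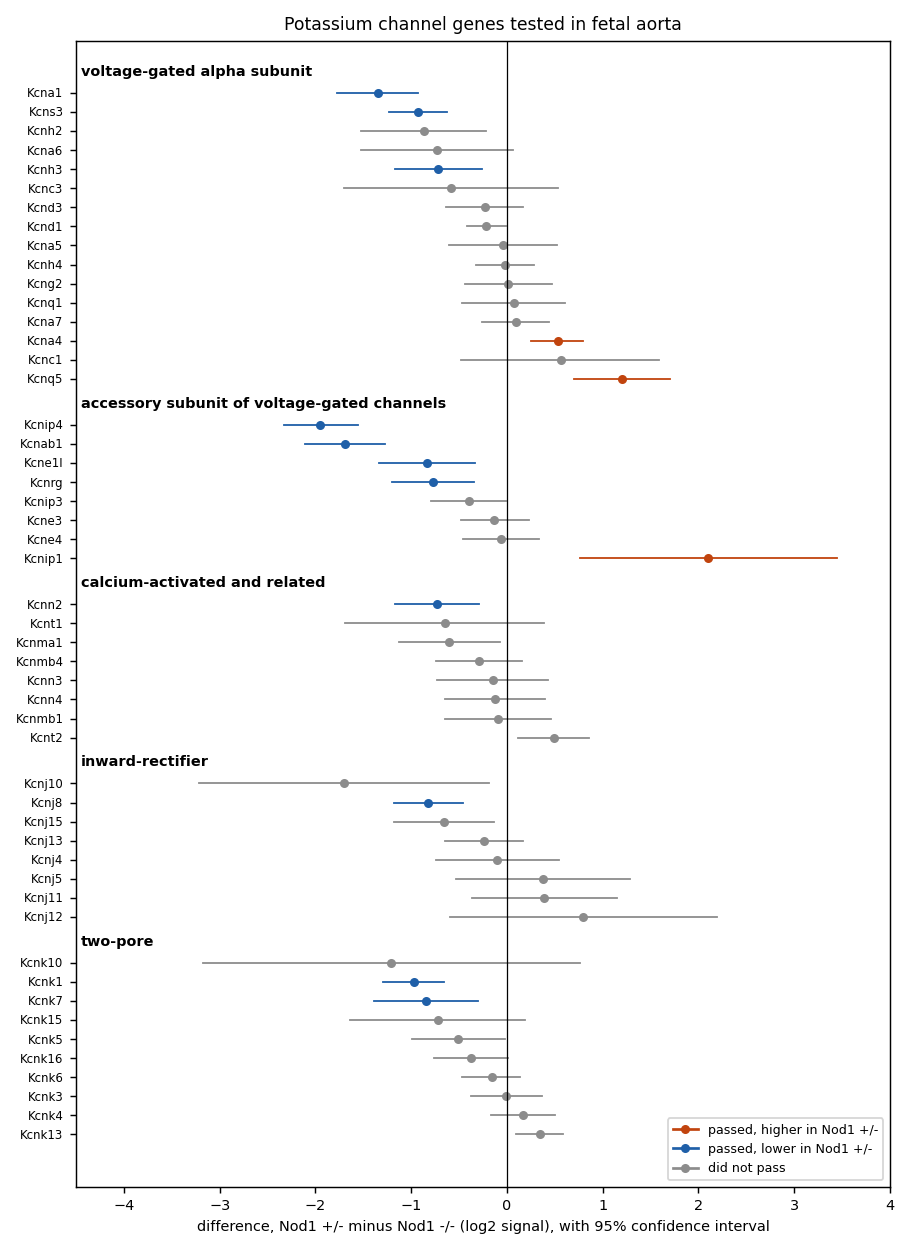
Difference between genotypes for 50 of the 53 tested potassium channel genes, by class. The x axis is Nod1 +/- minus Nod1 -/- in log2 signal, points are limma's estimates and bars their 95% confidence intervals; 3 genes in orange passed as higher in Nod1 +/-, 11 in blue as lower and 36 in grey did not pass.

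The accessory subunits of voltage-gated channels held the largest differences past the threshold. Of 8 tested genes 4 were lower (50%) and 1 higher (12.5%), against 11.0% and 7.66% of all genes. The class median was -0.59. Kcnip4 and Kcnab1 fell the most. Kcnip4 encodes a calcium-binding protein that joins Kcnd channels and changes their surface expression and inactivation. Its signal was -2.07, -2.03 and -2.03 on the Nod1 +/- arrays and -0.43, 0.03 and 0.11 on the Nod1 -/- arrays. The lowest Nod1 -/- array stood well above every Nod1 +/- array, and the Nod1 +/- arrays were nearly equal. Kcnip4 was 3.86-fold lower in Nod1 +/- vessels (log2 difference -1.95, standard error 0.16; limma adjusted p = 0.00163).

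Kcnab1 encodes a beta subunit that speeds the inactivation of Kcna channels. Its signal was 0.80, 0.98 and 0.64 on the Nod1 +/- arrays and 2.31, 2.81 and 2.37 on the Nod1 -/- arrays, again without overlap. Kcnab1 was 3.23-fold lower (log2 difference -1.69, standard error 0.17; limma adjusted p = 0.00286). Among the channel genes Kcnip4 and Kcnab1 alone passed under all 21 alternative settings, with differences of -2.15 to -1.44 and of -1.78 to -1.53.

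The remaining calls in this class lay closer to the threshold. Kcne1l, whose single-span subunit modulates Kcnq1 channels, read 1.31, 0.58 and 0.68 in Nod1 +/- and 1.62, 1.81 and 1.65 in Nod1 -/- vessels. Nod1 +/- replicate 1 stood apart from the other 2, although the genotypes did not overlap. The difference was -0.83 (standard error 0.21; limma adjusted p = 0.0399), and the gene's second probe gave -0.55 with an adjusted p of 0.243. The call ended without any one array other than Nod1 +/- replicate 1 (adjusted p 0.0829 to 0.131).

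Kcnrg, a soluble regulator that hinders the assembly of voltage-gated channels, read -3.34, -3.67 and -3.49 against -3.06, -2.55 and -2.58. The difference was -0.77 (standard error 0.18; limma adjusted p = 0.0326), and the call ended without any one array other than Nod1 -/- replicate 1 (adjusted p 0.06 to 0.11). Kcnip1, of the same family as Kcnip4, went the other way. It read -3.64, -3.00 and -3.91 in Nod1 +/- and -4.40, -6.48 and -5.98 in Nod1 -/- vessels, near the floor of detection, and was well above background on 2 Nod1 +/- arrays and 1 Nod1 -/- array. The difference was 2.10 (standard error 0.55; limma adjusted p = 0.0477), or 0.53 after normexp background correction. It was 2.71 without Nod1 -/- replicate 1, and the call ended without any other array (adjusted p 0.0731 to 0.132).

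The 3 tested accessory genes that did not pass were Kcnip3 (-0.40; adjusted p = 0.132), Kcne3 (-0.13; 0.572) and Kcne4 (-0.06; 0.815). Kcne3 and Kcne4 encode single-span partners of Kcnq channels that are known in arteries. A second Kcne3 probe gave -0.49 with an adjusted p of 0.1. Kcnab2, the other vascular beta subunit gene considered here, was not well above background on any array.

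**Figure D2:**
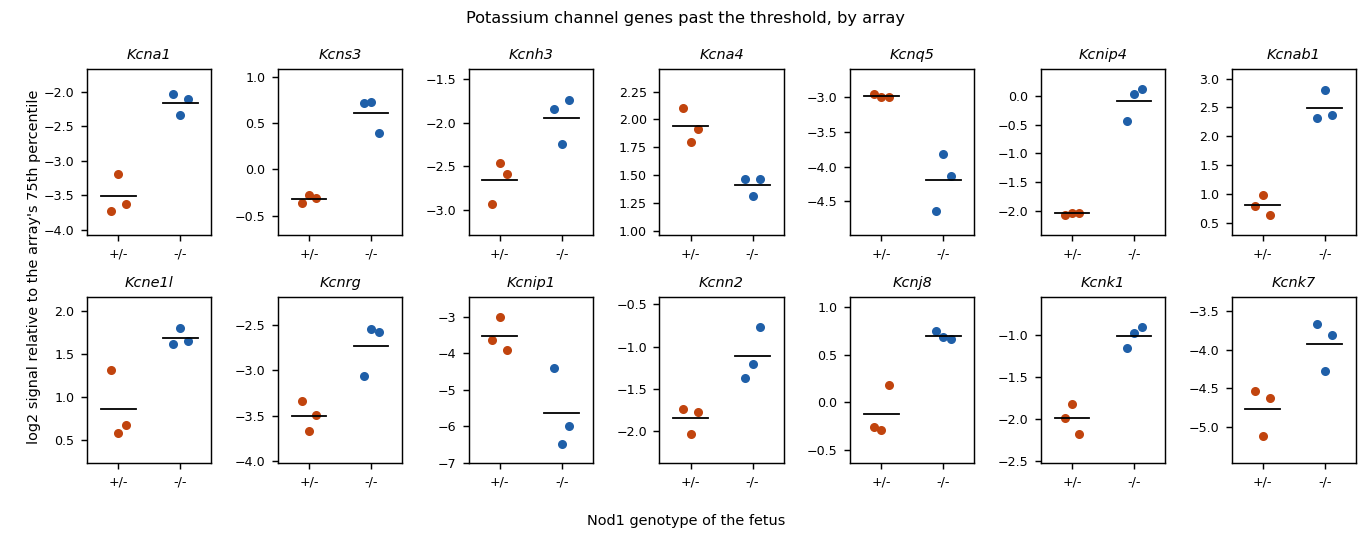
Signal of the 14 potassium channel genes past the threshold on each array. The y axis is log2 signal relative to the array's 75th percentile, on a scale of its own for each gene; points are arrays, 3 Nod1 +/- in orange and 3 Nod1 -/- in blue, and lines are means. The genes were picked by the limma test on these same values, and the points of the genotypes do not overlap in any panel. Of all genes tested 42.4% did not overlap.

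Among the voltage-gated alpha subunits, 3 of 19 tested genes fell (15.8%) and 2 rose (10.5%), with a median of -0.23. The shares of all genes were 11.0% and 7.66%. Kcna1, a delayed rectifier of axons and nerve endings, read -3.72, -3.19 and -3.62 in Nod1 +/- and -2.03, -2.34 and -2.11 in Nod1 -/- vessels. Every Nod1 +/- array was below every Nod1 -/- array, though the gene was well above background on only 2 of the 3 Nod1 +/- arrays. Kcna1 was 2.55-fold lower (log2 difference -1.35, standard error 0.17; limma adjusted p = 0.00595), or -0.63 after normexp background correction. Blocked by slide row, the difference was -1.39 and the adjusted p 0.0553.

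Kcns3 encodes a silent alpha subunit that carries no current alone and modifies the voltage-gated channels it joins. It read -0.36, -0.28 and -0.31 in Nod1 +/- and 0.72, 0.73 and 0.39 in Nod1 -/- vessels, so the lowest Nod1 -/- array was clear of the closely grouped Nod1 +/- arrays. The difference was -0.93, a 1.9-fold lower signal (standard error 0.12; limma adjusted p = 0.00641).

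Kcnh3, an ether-a-go-go-like channel known from the forebrain, read -2.94, -2.46 and -2.59 against -1.84, -2.25 and -1.74. The difference was -0.72 (standard error 0.19; limma adjusted p = 0.0469), and the call ended without any one of the 6 arrays (adjusted p 0.0546 to 0.133). Its relative Kcnh2, the ERG channel that repolarises the heart, read -3.19, -3.00 and -2.16 against -1.96, -1.85 and -1.93. The difference of -0.87 did not pass (adjusted p = 0.0711), but it was -1.18 with an adjusted p of 0.00776 without Nod1 +/- replicate 3, the array nearest to the Nod1 -/- arrays.

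Kcnq5 and Kcna4 were the voltage-gated alpha subunit genes that rose. Kcnq5, a subunit of the slowly opening M-type channels of neurons and arterial smooth muscle, read -2.96, -3.01 and -3.01 in Nod1 +/- and -4.63, -3.82 and -4.13 in Nod1 -/- vessels. All Nod1 +/- arrays were higher, and only 1 Nod1 -/- array was well above background. Kcnq5 was 2.3-fold higher (log2 difference 1.20, standard error 0.21; limma adjusted p = 0.0141), or 0.44 on the log2 scale after normexp background correction. Blocked by slide row, the difference was 1.14 and the adjusted p 0.118.

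Kcna4, a rapidly inactivating A-type channel, read 2.10, 1.80 and 1.91 against 1.46, 1.31 and 1.46. The difference of 0.53 (standard error 0.11; limma adjusted p = 0.0285) was the smallest past the threshold, and the call ended without any one of the 6 arrays (adjusted p 0.0507 to 0.1). Other vascular members of the class gave no call. Kcna5, the delayed rectifier of arterial smooth muscle, read -1.25, -1.30 and -0.90 against -1.44, -1.24 and -0.65 (difference -0.04, 95% confidence interval -0.60 to 0.52; adjusted p = 0.916), and its second probe gave -0.05. Kcnd3, an A-type channel, differed by -0.23 (adjusted p = 0.353).

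Kcnq1, a slowly opening channel of heart and epithelia, was read by a pair of probes that share 51 bases and are offset by 9, and these gave 0.07 (adjusted p = 0.852) and -0.45 (0.148). Kcna6, named after its values were seen, also had kept probes that disagreed, at -0.73 and 0.13, and neither passed. Kcna2 and Kcnc4 were too dim to test. Kcna2, a delayed rectifier, was well above background on no Nod1 +/- array and was so on 2 Nod1 -/- arrays. Without the filter on dim probes it differed by -1.63 (limma adjusted p = 0.00867). The size of that difference is not measured, since the Nod1 +/- signals behind it were not well above background.

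Of the 10 neuron and chromaffin markers, which include Th, 9 were brightest on replicate 1 of each genotype. The exception was Snap25, at 4.58, 4.37 and 4.81 in Nod1 +/- and 5.15, 4.99 and 5.53 in Nod1 -/- vessels. The mean of the 10 was 0.78, -0.81 and -1.46 in Nod1 +/- and 2.56, 0.81 and -0.38 in Nod1 -/- vessels. On the log2 scale their summed signal ranged from 4.68 to 5.27 and from 5.56 to 6.57, and none was dim on all arrays. Snap25, the brightest on every array, weighed most in these sums, and the genotypes overlapped for each of the other 9. By limma 0 of 10 passed (1, Snap25, at an unadjusted p under 0.05), in a fit that did not use the replicate number. Schwann cell markers, of glia that wrap axons, had a summed signal of 1.93 to 2.37 and of 3.12 to 3.64, and 2 of 4 tested were lower in Nod1 +/- (S100b and Fabp7), while Erbb3 was dim on all arrays. The part of nerve and glial transcripts in the values of Kcna1, Kcnip4, Kcnab1 and Kcnh3 was not tested.

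**Figure D3:**
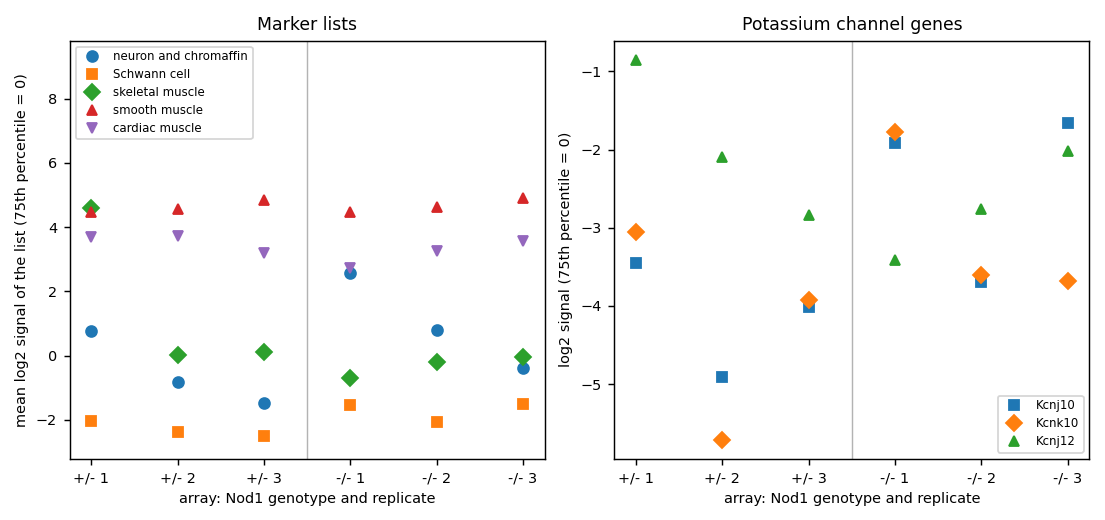
Marker lists and variable channel genes on each array. The left panel plots the mean log2 signal of 5 marker lists and the right panel the log2 signal of Kcnj10, Kcnk10 and Kcnj12, both relative to the array's 75th percentile, with Nod1 +/- arrays left of the grey line. Skeletal muscle markers stand at 4.58 on Nod1 +/- replicate 1 and between -0.68 and 0.11 on the others.

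Of the calcium-activated and related genes, 1 of 8 tested fell (12.5%, near the 11.0% of all genes), with a median of -0.22. Kcnn2, a small-conductance channel gated by calmodulin, read -1.74, -2.03 and -1.78 in Nod1 +/- and -1.37, -1.21 and -0.77 in Nod1 -/- vessels. The genotypes did not overlap, but the gap was narrow. The difference was -0.73 (standard error 0.18; limma adjusted p = 0.0402), and the call ended without any one of the 6 arrays (adjusted p 0.054 to 0.111).

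The large-conductance channel that brakes arterial contraction did not pass. Its pore gene Kcnma1 read -2.21, -2.69 and -2.87 against -2.29, -1.91 and -1.77, with overlap (difference -0.60, 95% confidence interval -1.13 to -0.07; adjusted p = 0.109). A second Kcnma1 probe gave 0.15, with Nod1 +/- replicate 3 at -0.15 and the other arrays between -4.15 and -1.91. Kcnmb1, its smooth muscle beta subunit, read -0.07, 0.49 and -0.18 against -0.05, 0.49 and 0.08 (difference -0.09, interval -0.65 to 0.46; adjusted p = 0.793). Kcnmb4, the beta subunit best known from brain, differed by -0.29 (adjusted p = 0.312).

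The endothelial calcium-activated channels gave no call. Kcnn4, the intermediate-conductance channel of endothelium-dependent hyperpolarisation, differed by -0.12 (interval -0.65 to 0.40; adjusted p = 0.713), and Kcnn3, its small-conductance counterpart, by -0.15 (interval -0.73 to 0.43; adjusted p = 0.684). The class also held Kcnt2, a sodium-activated channel, which read -2.84, -2.40 and -2.49 against -2.90, -3.17 and -3.14. All Nod1 +/- arrays were higher, and the difference of 0.49 did not pass (adjusted p = 0.0737).

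Among inward rectifiers 1 of 8 tested genes fell (12.5%, near the 11.0% of all genes), with a median of -0.17. Kcnj8, the pore subunit of the vascular ATP-sensitive channel that is strong in mural cells, read -0.26, -0.29 and 0.18 in Nod1 +/- and 0.75, 0.69 and 0.66 in Nod1 -/- vessels. The Nod1 -/- arrays were close together and all higher. Kcnj8 was 1.77-fold lower (log2 difference -0.82, standard error 0.15; limma adjusted p = 0.0159). The call ended when any one of replicates 1 and 2 of either genotype was left out (adjusted p 0.0522 to 0.064), and when blocked by slide row (difference -0.79; adjusted p = 0.122).

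Abcc9 encodes the sulfonylurea receptor that joins Kcnj8 in this channel, and the genes are neighbours, with 0 protein-coding genes between them in the GRCm38.p6 gene order. Abcc9 read 3.30, 3.27 and 3.51 in Nod1 +/- and 3.80, 4.33 and 4.33 in Nod1 -/- vessels, without overlap. The difference was -0.79 (standard error 0.18; limma adjusted p = 0.0297), and the call ended when Nod1 +/- replicate 1, Nod1 +/- replicate 2, Nod1 -/- replicate 2 or Nod1 -/- replicate 3 was left out (adjusted p 0.0736 to 0.103). It also ended under median scaling (adjusted p = 0.0554), blocked by slide row (0.0993) and with Xist signal as a covariate (0.072). The pore and the receptor subunit of this channel both passed as lower in the fit to all arrays, and neither did when blocked by slide row. The other ATP-sensitive pair, Kcnj11 and Abcc8, which is likewise adjacent, differed by 0.39 (adjusted p = 0.401) and 0.16 (0.596).

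Kcnj8 and Abcc9 were the 2 of 6 pericyte markers that passed, the other 4 being Rgs5, Pdgfrb, Cspg4 and Notch3. Rgs5 lay below Nod1 -/- on every Nod1 +/- array (difference -0.72, limma adjusted p = 0.056). The genotypes overlapped for Pdgfrb (-0.21), Notch3 (-0.19) and Cspg4, which lay the other way (0.37). The list's summed signal was 5.83 to 6.14 in Nod1 +/- and 5.99 to 6.53 in Nod1 -/- vessels, which overlap. Endothelial markers were lower in Nod1 +/- for 3 of 8 (Tek, Tie1 and Cldn5), with a summed signal of 4.73 to 5.01 against 5.22 to 5.46. Their members did not all lie one way, since Cdh5, the fourth at an unadjusted p under 0.05, was above Nod1 -/- on every Nod1 +/- array (difference 0.30; limma adjusted p = 0.0766). Fibroblast markers were lower for 3 of 7 (Dcn, Lum and Ogn), with a summed signal of 10.19 to 10.23 against 10.40 to 10.44. The genotypes overlapped for Col1a1, Col1a2, Col3a1 and Pdgfra (differences -0.04 to 0.16), and the list's median was -0.04. The part of these cells in the channel values was not tested.

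The remaining inward rectifiers did not pass. Kcnj15 read -2.02, -1.60 and -1.52 against -1.41, -0.77 and -0.98, without overlap (difference -0.66; adjusted p = 0.0808), and it passed with the replicate number as a block (adjusted p = 0.0319). Kcnj10, the glial inward rectifier, named after its values were seen, read -3.45, -4.91 and -4.02 against -1.91, -3.69 and -1.66. The arrays overlapped, and the difference of -1.70 did not pass (adjusted p = 0.109). It passed without Nod1 -/- replicate 2 (-2.34; adjusted p = 0.0473) and with the replicate block (0.0318).

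Kcnj12, an inward rectifier of striated muscle named after its values were seen, read -0.85, -2.09 and -2.84 against -3.41, -2.76 and -2.02. It was highest on Nod1 +/- replicate 1, the array on which skeletal muscle markers stood at 4.58. Those markers' summed signal was 4.94 to 9.21 in Nod1 +/- and 4.64 to 5.43 in Nod1 -/- vessels, and 0 of 6 tested passed by limma (0 at an unadjusted p under 0.05). The Kcnj12 difference was 0.80 (adjusted p = 0.357), and 0.26 without Nod1 +/- replicate 1. Cardiac markers were bright on every array, with a mean of 3.68, 3.71 and 3.21 in Nod1 +/- and 2.72, 3.26 and 3.58 in Nod1 -/- vessels. Like Kcnj12, they rose from replicate 1 to 3 of Nod1 -/-. The part of skeletal and cardiac muscle transcripts in the Kcnj12 values was not tested. Kcnj2, the inward rectifier of arteriolar endothelium and muscle, was too dim to test. It was well above background on 2 Nod1 -/- arrays and no Nod1 +/- array. Without the filter it differed by -1.13 (limma adjusted p = 0.0257), a size that likewise rests on undetected Nod1 +/- signals.

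Of the tandem-pore genes, 2 of 10 tested fell (20%, against 11.0% of all genes). The class median was -0.44, or -0.33 with the dim gene Kcnk7 at its bound. Kcnk1, a weakly inward-rectifying tandem-pore channel, read -1.98, -1.82 and -2.17 in Nod1 +/- and -1.16, -0.98 and -0.91 in Nod1 -/- vessels. The groups were well separated. Kcnk1 was 1.96-fold lower (log2 difference -0.97, standard error 0.13; limma adjusted p = 0.00671), and blocking by slide row gave -1.08 with an adjusted p of 0.0441.

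Kcnk7, a subunit with no known current of its own, read -4.54, -5.12 and -4.63 against -3.67, -4.28 and -3.81. It was well above background on no Nod1 +/- array and on 3 Nod1 -/- arrays, so only the latter brought it past the filter. Its difference is given as at least 1.22-fold lower. The limma adjusted p of 0.0481 belongs to the difference of -0.85 between the signals as read, not to this bound. The call ended without any one of the 6 arrays (adjusted p 0.0549 to 0.133), and with normexp background correction the difference was -0.20 (adjusted p = 0.259).

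The tandem-pore channels best known from vessels did not pass. Kcnk3, the acid-sensitive channel of pulmonary arteries, read 0.49, 0.67 and 0.16 against 0.41, 0.36 and 0.57 (difference -0.01, 95% confidence interval -0.38 to 0.37; adjusted p = 0.984). Kcnk6 differed by -0.16 (interval -0.47 to 0.14; adjusted p = 0.383). Kcnk5 differed by -0.51 (adjusted p = 0.128), or -0.71 with an adjusted p of 0.0407 without Nod1 +/- replicate 2. Kcnk2, the stretch-sensitive channel, was not well above background on any array. Kcnk10, its relative, named after its values were seen, ranged from -5.71 to -3.05 in Nod1 +/- and from -3.68 to -1.77 in Nod1 -/- vessels (difference -1.21; adjusted p = 0.327).

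**Figure D4:**
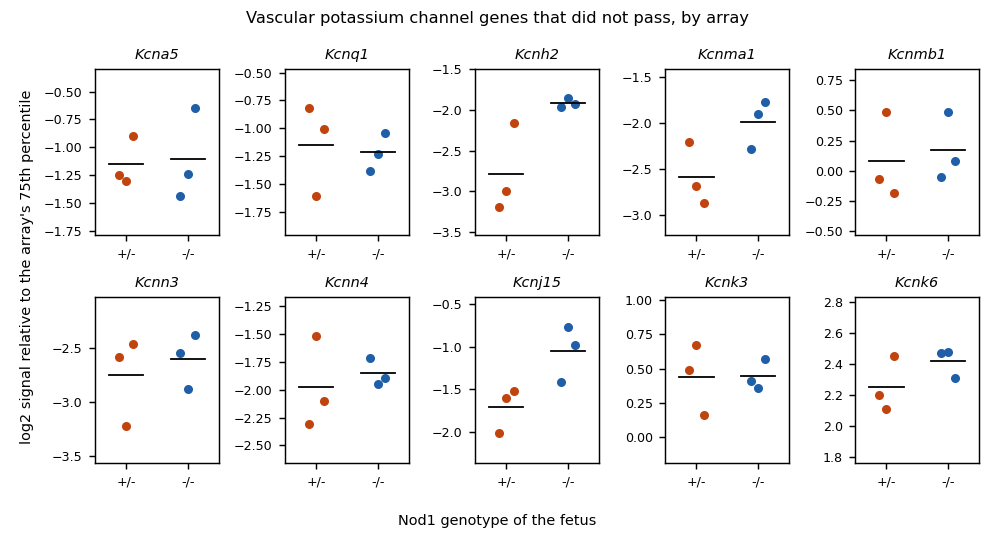
Signal of 10 vascular potassium channel genes that did not pass, on each array. The y axis is log2 signal relative to the array's 75th percentile, on a scale of its own for each gene; points are arrays, 3 Nod1 +/- in orange and 3 Nod1 -/- in blue, and lines are means. Points of the genotypes overlap for Kcna5, Kcnma1, Kcnmb1 and Kcnk3, and do not for Kcnh2 and Kcnj15.

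A list of 26 genes known from vessels, taken across the classes, gave 21 tested genes, of which 3 fell (Kcnab1, Kcnj8 and Kcnk1) and 1 rose (Kcnq5), with a median of -0.23. The background shares are again 11.0% lower and 7.66% higher. The 5 not tested were Kcna2, Kcnab2, Kcnc4, Kcnj2 and Kcnk2. Of the 41 channel genes of all classes not tested, the brightest probe was well above background on no array for 26 and on 1 or 2 arrays for 15.

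Of the genes whose proteins work with these channels, 5 of 32 tested passed (15.6%), 2 higher and 3 lower, near the 18.7% of all genes. Among accessory subunits without a Kcn symbol, 1 of 5 tested rose and 1, Abcc9, fell. Lrrc55, an auxiliary subunit that eases the opening of Kcnma1 channels, read -1.59, -1.23 and -1.61 in Nod1 +/- and -3.03, -2.47 and -2.81 in Nod1 -/- vessels. All Nod1 +/- arrays were higher, by 1.29 on the log2 scale (standard error 0.18; limma adjusted p = 0.00805). Blocked by slide row, the adjusted p was 0.07.

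Cngb1 was the 1 of 2 tested genes of the related cyclic nucleotide-gated and pacemaker channels that fell, and 5 of the 8 listed were dim on all arrays. This beta subunit of a cyclic nucleotide-gated cation channel read -2.41, -2.38 and -2.47 against -1.24, -0.85 and -1.18. The genotypes were far apart relative to their spread (difference -1.33, standard error 0.13; limma adjusted p = 0.00263), and the call held in all 21 settings.

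For the sodium-potassium pump and chloride cotransporters, which build and share the potassium gradient, 1 of 12 rose and 1 fell. Slc12a7, a potassium-chloride cotransporter, read 2.31, 2.44 and 2.30 against 1.26, 1.58 and 1.74. It rose by 0.82 (standard error 0.14; limma adjusted p = 0.0148), and the call ended without Nod1 +/- replicate 2 or Nod1 -/- replicate 2 (adjusted p 0.0522 to 0.056). Atp1b2, a pump beta subunit best known from glia, read 0.99, 0.95 and 1.14 against 1.96, 1.66 and 2.24. Its difference was -0.93 (standard error 0.17; limma adjusted p = 0.0156), and the call ended when Nod1 +/- replicate 1, Nod1 +/- replicate 2 or Nod1 -/- replicate 1 was left out (adjusted p 0.0523 to 0.0555). Of the 13 tested calcium channel and calcium release genes, 0 passed by limma and 2 had an unadjusted p under 0.05 (Ryr3 at 0.74 and Trpc6 at 1.43, both higher in all Nod1 +/- arrays); the median was 0.10.

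Immune cell markers moved with genotype as well. Of 8 neutrophil markers 5 were higher in Nod1 +/- (summed signal 8.06 to 8.16 against 7.29 to 7.73). Csf3r, the brightest of them on the Nod1 -/- arrays, lay the other way without passing (difference -0.44, limma adjusted p = 0.218). Of 8 macrophage markers 2 were lower in Nod1 +/- (Csf1r and Cx3cr1), with a summed signal of 5.88 to 6.12 against 5.95 to 6.84. Another macrophage marker, Mrc1, was above Nod1 -/- on every Nod1 +/- array (difference 0.58; limma adjusted p = 0.117). Kcnk13, a tandem-pore channel of microglia named after its values were seen, read -1.54, -1.60 and -1.77 against -1.95, -2.03 and -1.97, and its difference of 0.35 did not pass (adjusted p = 0.064). The part of immune cells in the channel values was not tested.

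Promoters were read from RefSeq on GRCm38.p6, as the 250 bases before each annotated start. Of the 94 channel genes, 69 had at least 1 promoter, giving 94 promoters among 32851 in all. Several motifs were searched on both strands: the NF-kB site, the serum response CArG box, the AP-1 site TGANTCA, the cyclic AMP element TGACGTCA, the E-box CACGTG, the GC box GGGCGG and the TATA box TATAAA. The following promoters of genes that fell are shown because they hold an NF-kB site, an AP-1 site or an E-box, with every match in capitals. No capital run joins overlapping matches.
Kcnip4 first promoter (chr5:48599683-48599932, minus strand): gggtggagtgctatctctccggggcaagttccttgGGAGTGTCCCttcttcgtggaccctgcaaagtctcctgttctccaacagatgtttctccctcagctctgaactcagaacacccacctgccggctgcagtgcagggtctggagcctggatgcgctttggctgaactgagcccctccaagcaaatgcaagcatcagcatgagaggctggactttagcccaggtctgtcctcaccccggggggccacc
Kcnip4 second promoter (chr5:49285660-49285909, minus strand): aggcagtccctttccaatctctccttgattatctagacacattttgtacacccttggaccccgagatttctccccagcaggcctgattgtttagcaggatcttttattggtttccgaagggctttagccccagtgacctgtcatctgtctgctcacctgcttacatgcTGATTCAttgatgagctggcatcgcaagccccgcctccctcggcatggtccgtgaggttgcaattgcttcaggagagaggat
Kcns3 promoter (chr12:11150374-11150623, minus strand): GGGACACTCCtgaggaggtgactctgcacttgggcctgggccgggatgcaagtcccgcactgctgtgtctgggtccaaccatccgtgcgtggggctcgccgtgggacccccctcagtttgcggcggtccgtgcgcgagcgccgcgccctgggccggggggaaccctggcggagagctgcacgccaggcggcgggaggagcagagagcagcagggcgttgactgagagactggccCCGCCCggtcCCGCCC
Kcnab1 first E-box promoter (chr3:65108764-65109013, plus strand): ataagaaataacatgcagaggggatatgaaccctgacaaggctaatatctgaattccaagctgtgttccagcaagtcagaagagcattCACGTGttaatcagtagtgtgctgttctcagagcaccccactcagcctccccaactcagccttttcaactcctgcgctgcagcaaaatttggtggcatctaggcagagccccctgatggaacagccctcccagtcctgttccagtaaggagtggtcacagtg
Kcnab1 second E-box promoter (chr3:65187853-65188102, plus strand): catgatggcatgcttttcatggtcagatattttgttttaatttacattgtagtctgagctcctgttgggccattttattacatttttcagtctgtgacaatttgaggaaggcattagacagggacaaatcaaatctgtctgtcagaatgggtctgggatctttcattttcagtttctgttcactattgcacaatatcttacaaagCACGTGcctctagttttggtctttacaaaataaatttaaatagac

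In the first Kcnip4 promoter the capitals mark an NF-kB site and in the second an AP-1 site. In Kcns3 the first run is an NF-kB site at the far edge of the window, and the other capitals are GC boxes beside the start. The Kcnab1 promoters each hold an E-box. These genes are Kcnip4, Kcns3 and Kcnab1, 3 of the 8 that fell and were matched to a promoter, out of 11 that fell. The NF-kB site was found in 3.9% of all promoters, in 6 of 94 channel promoters, in 2 of the 12 promoters of genes that fell and in 0 of the 6 of genes that rose. An E-box was found in 6.02% of all promoters and in 6 of 94, and in the same 2 of 12 and 0 of 6. For the AP-1 site the shares were 6.75%, 4 of 94, 1 of 12 and 0 of 6. For the GC box they were 32.7%, 42 of 94, 5 of 12 and 2 of 6. A TATA box was found in 12.4% of all promoters, 3 of 94, 0 of 12 and 0 of 6. The CArG box and the cyclic AMP element, found in 1.47% and 1.55% of all promoters, were in 0 of 94. A match describes letters only, and which start was used in these vessels was not measured.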

How the data were processed

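RNA of fetal aortas was hybridised to 1-colour Cy3 Agilent arrays, 3 per genotype, on 1 slide. Each spot of the deposited scanner files is an intensity from which the software had already subtracted background. The file headers name Agilent Feature Extraction 10.7.1.1 for this step, whereas version 9.5.1.1 stands in the submitters' processing notes. Probe positions refer to mm9, per the file headers. An intensity matrix of all arrays deposited by the authors served only as an alternative.

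Outlier and control spots were left out, processed signals were taken to log2 from the deposited intensities, spots of a probe were averaged, and each array's 75th percentile over probes (signal 371.7 to 439.5) was subtracted. Probes well above background on at least 3 of 6 arrays were kept (30166), and of a gene's kept probes the one with the highest mean was used. Genotypes were compared with limma 3.58.1 (lmFit, eBayes) in R 4.3.3 (package data.table, version 1.17.8), with p-values adjusted by Benjamini-Hochberg over the 21478 genes and differences taken as Nod1 +/- minus Nod1 -/-. The fit was tested on simulated data. Plots were drawn with matplotlib 3.10.9. The number of arrays limits the precision.

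A tested gene dim on all arrays of a genotype is given as "at least N-fold". The bound sets the bright mean against a mean for the dim genotype, in which each array counts as its own signal or as its dimmest probe well above background, whichever is higher. The members and gene lists were chosen with earlier results of these data known. Genes named were Nod1, every channel gene past the threshold, the 2 smallest p of a class with fewer than 2 calls, 26 vascular genes, and up to 3 changed members of each partner list; others, among them Kcnip3, Kcnj11, Abcc8, Kcnd2, Ryr3, Trpc6 and marker genes, were named after their values were seen. All 94 array symbols matched current RefSeq symbols. Gene models of mm9 were not used here, and no probe is placed in an exon or intron. Alternatives were normexp background correction (offset 50), quantile and median scaling, other filters and probe rules, an intensity trend, array weights, blocks by replicate number or slide row, a covariate of Xist signal, the deposited matrix, a 2-fold minimum, and arrays left out. A few genes are not reported here one by one, though they stay in the counts.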

Additional observations from a re-analysis of the deposited data

How the results depend on the processing

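Arrays are few, and 41 channel genes were too dim to test. None of the named results changed sign with a call under the 21 alternatives. Of the 14 channel genes past the threshold, 6 (Kcnip4, Kcnab1, Kcna1, Kcns3, Kcnk1 and Kcnq5) kept the call without any single array and 8 did not. Channel genes past the threshold numbered 9 after median scaling, 9 without the filter on dim probes (1 higher, 8 lower; 6 of them among the 14), 6 when blocked by slide row (0 higher; 5 among the 14), 5 at a 2-fold minimum and 5 without replicate 1 of both genotypes. They numbered 7 to 10 with 1 array left out, and 16 with array weights. For partner genes the counts, 5 in the main comparison, were 2 without the filter, 9 with array weights, 2 when blocked by slide row, 2 at a 2-fold minimum, 1 without replicate 1 of both genotypes and 2 to 7 with 1 array left out. All genes past the threshold, 4012 in the main comparison, numbered 2506 after median scaling (1580 higher, 926 lower), 1636 without the filter, 1033 when blocked by slide row, 2281 with Xist signal as a covariate, 1203 at a 2-fold minimum, 641 without replicate 1 of both genotypes and 1459 to 3387 with 1 array left out. The causes of these shifts were not tested, beyond fewer arrays or other genes entering the fit.

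The labels number the arrays 1 to 3 in both genotypes without saying that a number marks a litter. Deviations of same-numbered arrays correlated at 0.08, 0.28 and 0.11, and those of differently numbered arrays at -0.31 to 0.13. These values do not settle whether the numbers mark pairs, and the main comparison was unpaired. With the replicate number as a block 13 channel genes passed, 9 of them among the 14, with 5 partner genes and 4040 genes in all. The block ended the calls of Kcne1l, Kcnh3, Kcnip1, Kcnn2 and Kcnrg.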
